A study of Homo sapiens with 4 samples.

Results

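The suppressor of cytokine signalling genes *SOCS1* to *SOCS7* and their relative *CISH* were taken by their symbols in the GENCODE 44 annotation, as 8 of its 20046 protein-coding genes. Every peak within 3 kb of an annotated transcription start site (TSS) of one of them, in its gene body or within 50 kb of the gene was included, which gave 39 of the 30819 peaks of the control library and 46 of the 39654 peaks of the IFN-γ library. The peaks came from ChIP-seq of HK1 cells, an established nasopharyngeal carcinoma line. The cells overexpressed Flag-tagged FLI1 and received PBS (the control) or IFN-γ for 24 h, and chromatin was pulled down through the Flag tag, so that what was measured is binding by the overexpressed, tagged protein. Both groups carry the overexpression, each has 1 library, and no comparison between them was tested. The 2 inputs were not analysed here, and a peak list gives no expression markers by which the labelled cell type could be checked. Each peak is described by a pair of values. The fold enrichment at the summit is the authors' value over the local background, and the pileup is the number of fragments at the summit, recovered from the deposited fold enrichment and −log10 p.

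SOCS and CISH proteins are feedback inhibitors of cytokine receptors. Each has an SH2 domain that docks on phosphorylated receptors or kinases and a SOCS box that binds elongins B and C, with which it recruits a cullin E3 ubiquitin ligase. Cytokines such as IFN-γ activate JAK kinases and STAT factors, the STATs switch on several of these genes, and the proteins made then damp the same receptors. FLI1 is an ETS family factor, which binds DNA at the core GGAA, alone or in tandem repeats. STAT dimers bind the palindrome TTCNNNGAA, called GAS, whose right arm is a GGAA core whenever the base before GAA is G.

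The sequences under the summits on which the results turn are given first, read 5′ to 3′ from GRCh38, with the motif matches in capitals. The 4 GAS matches under the *CISH* promoter peak come in 2 pairs, both shown on the minus strand, the strand of the gene. The near pair lies at chr3:50611876-50611905 and the far pair at chr3:50611991-50612020, in an exon of the neighbouring gene *MAPKAPK3*.
CISH near pair: ggTTCTAGGAAgacgctgcTTCCGGGAAgg
CISH far pair: ccgttTTCCTGGAAagTTCTTGGAAatctg
The same arrangement of 2 GAS matches separated by the bases AG as in the far pair was found under the control summit at *SOCS2*, at chr12:93570891-93570920 on the plus strand, in an annotated exon.
SOCS2 pair: gccgaTTCCTGGAAagTTCCTGGAAagccg
Downstream of *SOCS3*, 2 peaks held the octamer, at chr17:78329536-78329616 with an AP-1 match (TGANTCA) on either side of it, and at chr17:78343794-78343874. Both are shown on the plus strand, so that the octamer of the second reads as its reverse complement.
SOCS3 downstream, distal: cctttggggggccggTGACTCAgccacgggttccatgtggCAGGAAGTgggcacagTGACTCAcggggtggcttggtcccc
SOCS3 downstream, proximal: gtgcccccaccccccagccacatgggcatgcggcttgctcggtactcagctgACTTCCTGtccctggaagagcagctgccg
Runs of GGAA were found under 5 IFN-γ summits, and 4 are shown here on the minus strand. They lie at chr12:93548015-93548106 and chr12:93614422-93614489 on either side of *SOCS2*, and at chr17:78347041-78347076 and chr17:78350709-78350748 downstream of *SOCS3*, with 18, 12, 4 and 5 units.
SOCS2 upstream repeat: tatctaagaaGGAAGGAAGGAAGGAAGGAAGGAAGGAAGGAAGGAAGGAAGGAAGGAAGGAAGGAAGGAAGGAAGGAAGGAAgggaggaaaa
SOCS2 downstream repeat: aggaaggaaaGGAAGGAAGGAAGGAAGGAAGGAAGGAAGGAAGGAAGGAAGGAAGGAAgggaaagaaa
SOCS3 repeat of the shared peak: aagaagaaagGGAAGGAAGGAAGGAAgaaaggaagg
SOCS3 repeat of the IFN-γ peak: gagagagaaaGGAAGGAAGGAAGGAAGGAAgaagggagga

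All 8 genes had a promoter peak, which is a peak overlapping the 3 kb either side of an annotated TSS, in both libraries. Of all protein-coding genes 61.9% had one in the control library, 59.7% in the IFN-γ library and 56% in both. The control peaks comprised 10 at promoters of the 8 genes, 1 in a gene body and 28 around them, and the IFN-γ peaks comprised 12, 1 and 33. Many of these promoters are not theirs alone: 6 of the 10 control and 6 of the 12 IFN-γ promoter peaks also lay within 3 kb of a TSS of another gene. Of the peaks outside their promoters, 16 control and 15 IFN-γ peaks lay at the promoter of another gene, and 13 and 19 lay at no promoter. The number of peaks per gene ran from 2 to 13 in the control library, with a median of 2.5, and from 3 to 13 in the IFN-γ library, with a median of 4. The median protein-coding gene had 3 in each library, so that the family as a whole was not rich in peaks.

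**Figure D1:**
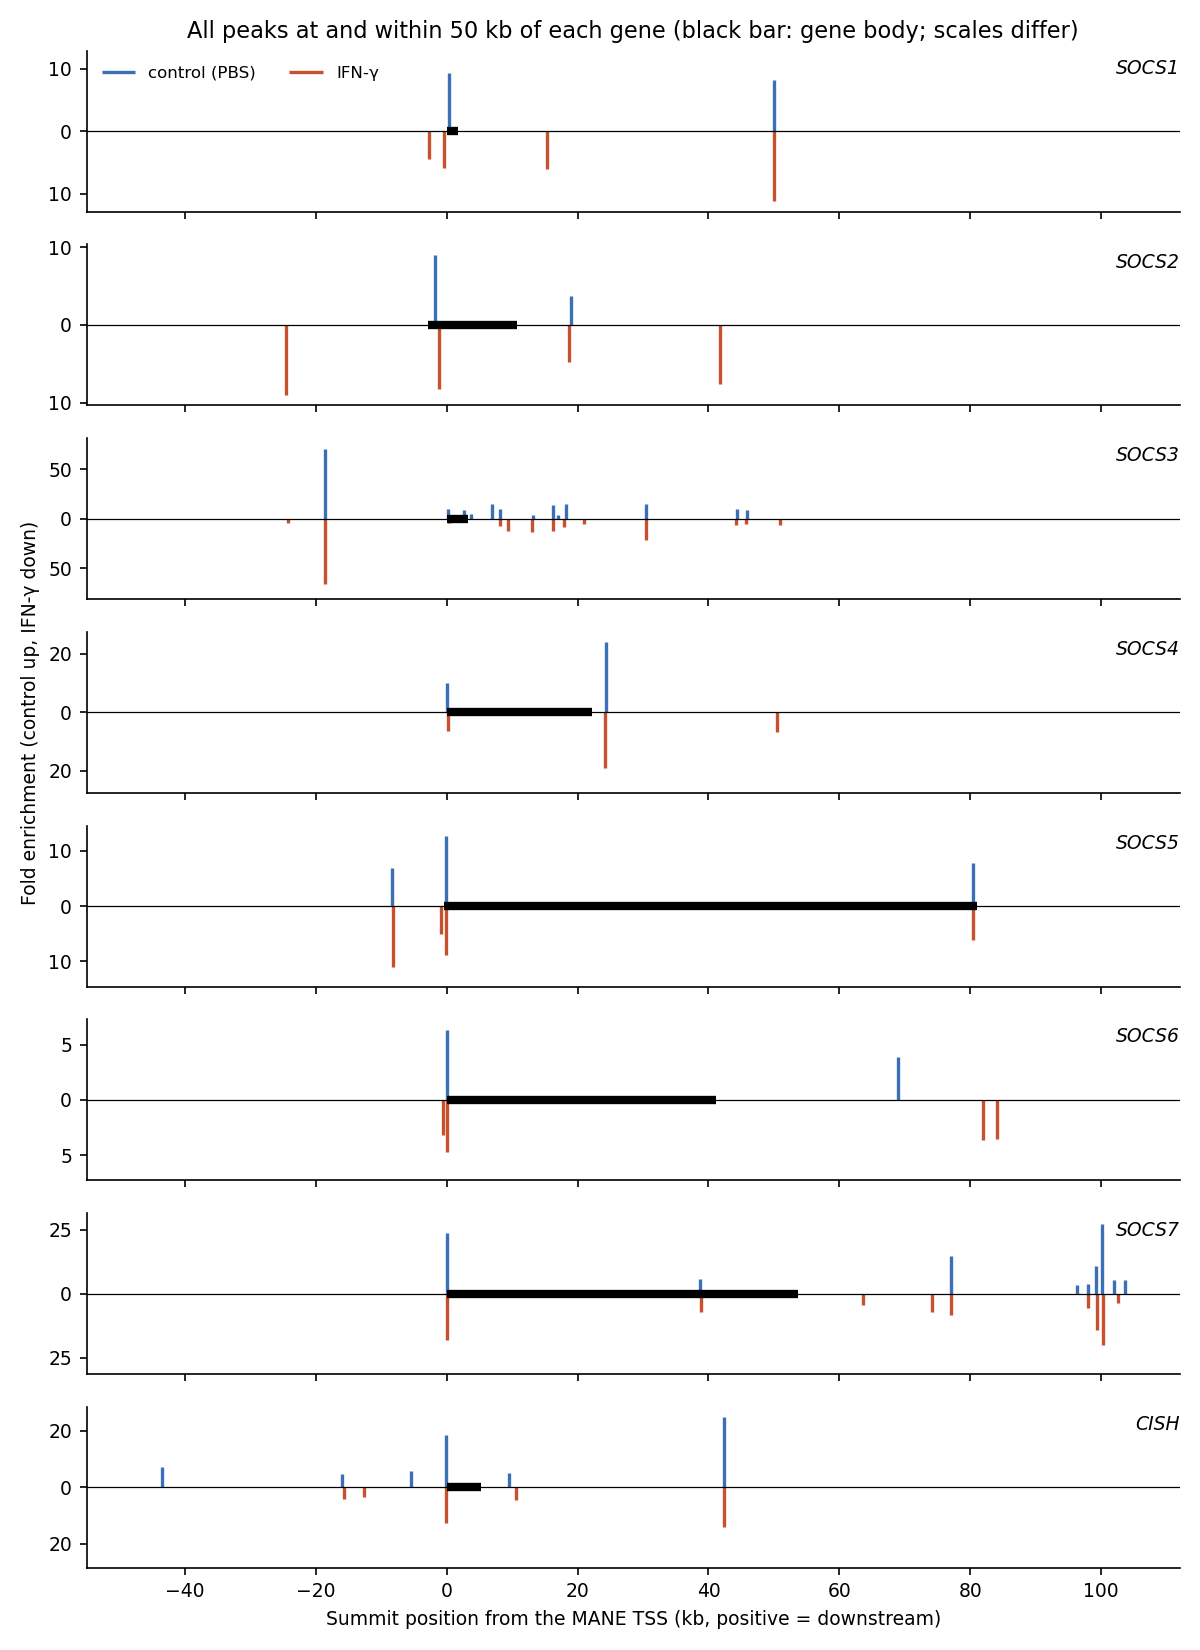
Fold enrichment of every peak at and within 50 kb of the 8 genes (vertical axis, control library upwards and IFN-γ library downwards, with a scale of its own for each gene) against the distance of its summit from the MANE TSS in kb, with the gene body as a black bar. Each gene has a line near 0 kb in both libraries; the 13 peaks of *SOCS3* in each library lie mostly downstream of the gene, and those of *SOCS7* lie mostly beyond the end of the gene.

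The strongest promoter peaks were those of *SOCS7* and *CISH*. *SOCS7*, whose protein binds insulin receptor substrates and other signalling adaptors, was enriched 23.8-fold, from 48 fragments, in the control library (95% Poisson interval 35.4 to 63.6), and 18.2-fold, from 58 fragments (44 to 75.0), in the IFN-γ library. It ranked 1955 by −log10 p in the control list, within the top 6.34%, and 3811 in the IFN-γ list, within the top 9.61%. The summits lay 11 bp upstream of its MANE TSS, the start of the reference transcript chosen jointly by Ensembl and RefSeq, and 4 bp downstream of it. The control summit was at the centre of a copy of the FLI1 octamer, CCGGAAGT, and the IFN-γ summit was 15 bp away. No other SOCS or CISH gene had the octamer within 500 bp of its MANE TSS, where 14.1% of 19061 genes had it.

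*CISH* encodes an inhibitor of cytokine receptors that signal through STAT5. Its promoter peak was enriched 18.6-fold, from 55 fragments, in the control library (41.4 to 71.6), rank 2159 and top 7.01%, and 12.7-fold, from 51 fragments (38 to 67.1), in the IFN-γ library, rank 5911 and top 14.9%. The peak spanned chr3:50611728-50612321 in the control list and chr3:50611689-50612265 in the IFN-γ list. *CISH* shares this promoter with *MAPKAPK3*, a kinase of the p38 pathway transcribed the other way. The summits lay 169 bp and 134 bp upstream of the *CISH* MANE TSS but 35 bp and 0 bp from a *MAPKAPK3* TSS, so the peak cannot be given to one of these genes by position.

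The promoter peaks of the other genes ranked lower. *SOCS5*, whose protein acts on the EGF receptor, followed with a 12.7-fold enrichment from 25 fragments in the control list and an 8.78-fold enrichment from 37 fragments in the IFN-γ list, within the top 21.1% and 26.9%. *SOCS4*, the closest relative of *SOCS5*, had 26 fragments in each library, with fold enrichments of 10.1 and 6.45 and positions in the top 25.2% and 45%. The *SOCS4* peak also lay within 3 kb of a TSS of *WDHD1*, a replication factor gene, and its summits were 81 bp and 238 bp downstream of the *SOCS4* MANE TSS. The *SOCS5* peak overlapped the start of the non-coding gene *LINC01118*.

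*SOCS1*, the main brake on the IFN-γ receptor, had a 9.35-fold enrichment from 24 fragments in the control list and a 5.95-fold enrichment from 26 fragments in the IFN-γ list, in the top 28.8% and 48.1%. *SOCS2*, which restrains growth hormone signalling, had fold enrichments of 8.97 from 26 and of 8.24 from 21 fragments, in the top 28.3% and 42.4%. *SOCS3*, which blocks JAK kinases at gp130 receptors, had fold enrichments of 10.2 from 20 and of 4.71 from 14 fragments, in the top 29.6% and 78.9%. The weakest was *SOCS6*, a regulator of receptor tyrosine kinases such as KIT, with fold enrichments of 6.33 from 12 and of 4.73 from 11 fragments, in the top 60.7% and 82.8%.

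Ordered by pileup in the control library, each gene's Poisson interval overlapped that of its neighbour in the order. That of *CISH*, from 41.4 fragments, did not overlap those of *SOCS2*, *SOCS4*, *SOCS5*, *SOCS1*, *SOCS3* and *SOCS6*, the highest of which ended at 38.1. In the IFN-γ library *SOCS7* and *CISH* again had the most fragments, now followed by *SOCS5*, and *SOCS3* and *SOCS6* again had the fewest. The median position of the 8 genes was the top 26.8% of the control list and the top 43.7% of the IFN-γ list, beside 24.7% and 28.8% over all protein-coding genes with a promoter peak. These intervals cover counting error only.

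**Figure D2:**
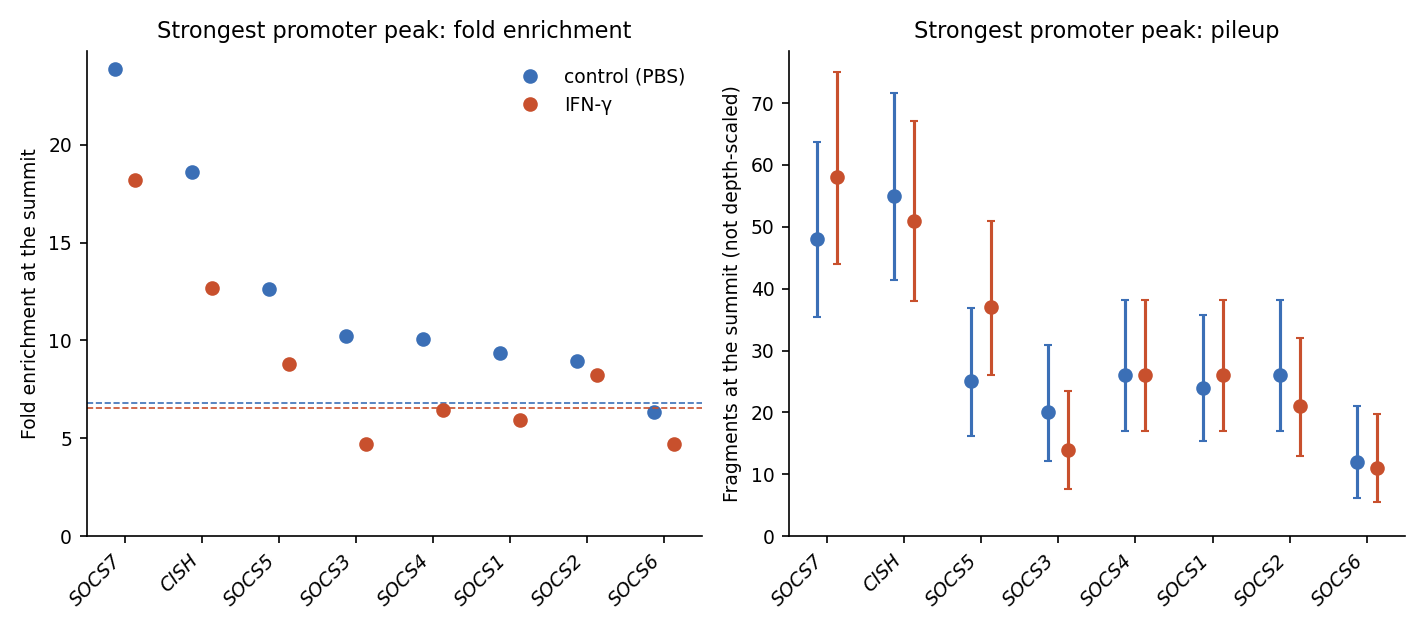
Fold enrichment (left, dashed lines at the medians of the lists, 6.81 and 6.57) and pileup in fragments with exact 95% Poisson intervals (right, not scaled for depth) of the strongest promoter peak of each gene in the control and IFN-γ libraries, in order of control fold enrichment. *SOCS7* and *CISH* stand highest on both panels, and *SOCS6* has the fewest fragments in both libraries.

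Further promoter peaks had fewer fragments than the strongest promoter peak of the same gene and library. In the control library *SOCS3* had a second one at chr17:78357286-78357701, in the 3′ untranslated part of exon 2, with 17 fragments and a fold enrichment of 8.69, which no IFN-γ peak overlapped. *SOCS1* and *SOCS6* had one more in the IFN-γ library only. That of *SOCS1*, 2.71 kb upstream at chr16:11258805-11259061, had 17 fragments and a fold enrichment of 4.4, and that of *SOCS6*, at chr18:70288430-70288687, had 7 fragments and a fold enrichment of 3.15. *SOCS5* had a further IFN-γ peak 864 bp upstream, with 18 fragments, and in both libraries a peak 80.4 kb into the gene near an alternative TSS, with 15 control and 16 IFN-γ fragments.

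The comparison of the libraries asks where the overexpressed FLI1 was found after IFN-γ and without it. Of the 39 control peaks, 29 overlapped an IFN-γ peak, or 74.4% (exact Clopper-Pearson 95% interval 57.9% to 87.0%), beside 77.5% of all control peaks. Of the 46 IFN-γ peaks, 29 had a control counterpart, or 63.0% (47.5% to 76.8%), beside 61% of all IFN-γ peaks. The peaks of these genes were thus shared about as often as other peaks. All peaks of *SOCS5* were shared, whereas *SOCS3* had 3 control and 4 IFN-γ peaks without a counterpart and *SOCS7* had 3 and 3. Those without a counterpart had fold enrichments from 3.42 to 8.69 in the control library and from 3.15 to 12.9 in the IFN-γ library. Only 1 of them, an IFN-γ peak downstream of *SOCS3*, was above the upper quartile of its list by fold enrichment. Absence from a list means only that a place did not reach the calling cutoff of that library.

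At shared promoters the IFN-γ pileup was divided by the control pileup and by the depth ratio of the libraries, 1.46. In 7 of the 8 genes this scaled ratio was under the median of 0.886 found over 13571 pairs of promoter peaks (quartiles 0.687 and 1.16), and the median of the 8 was 0.662. It was lowest at *SOCS3*, at 0.481 (exact 95% interval 0.225 to 1.00), where 20 fragments stood against 14. The next were *SOCS2* at 0.555 (0.297 to 1.03), *SOCS6* at 0.630 (0.252 to 1.56) and *CISH* at 0.637 (0.426 to 0.95). These 4 of 8 were lower by over 1.5 times, as were 22.2% of all promoter pairs, and 0 of 8 were higher by as much, as were 10.6% of all promoter pairs. Which genes were lower depended on the measure: by the ratio of fold enrichments they were *SOCS3*, *SOCS1* and *SOCS4*, at 0.461, 0.636 and 0.639, beside 28.6% of all promoter pairs, while *SOCS2* was at 0.918, *SOCS6* at 0.748 and *CISH* at 0.683. *SOCS4* had 0.687, *SOCS1* 0.744, *SOCS7* 0.830 and *SOCS5* 1.02. Each gene was represented by its promoter pair with the most control fragments. The further promoter pair of *SOCS5*, near its alternative TSS, had a ratio of 0.733 (0.339 to 1.59). The interval held 1 in 7 of the 8 genes, the exception being *CISH*, and it held 0.886 in all 8, so that for no single gene could a difference from the usual promoter be seen at this depth. At *SOCS1* and *SOCS2* the summits of the 2 libraries lay 767 bp and 686 bp apart, and at *SOCS3* and *SOCS4* 237 bp and 157 bp, beside a median of 35 bp over all promoter pairs, so these ratios compare different places in the promoter. At *SOCS5*, *CISH*, *SOCS6* and *SOCS7* they lay 60 bp, 35 bp, 28 bp and 15 bp apart.

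Away from promoters the ratios were centred elsewhere. Around the 8 genes 8 pairs lay at no promoter, with a median ratio of 1.25 from 0.706 to 3.82, beside a median of 1.24 (quartiles 0.937 and 1.64) over 9804 such pairs in all. Of these 8, 2 were higher by over 1.5 times, as were 32.6% of all distal pairs, and 0 were lower, as were 6.32% of all distal pairs. The highest was the peak 13.1 kb downstream of *SOCS3*, and the other was a peak 8.28 kb upstream of *SOCS5* at chr2:46690962-46691175 in the control list. This *SOCS5* peak had 13 control and 34 IFN-γ fragments before scaling, a ratio of 1.80 (0.924 to 3.71), and its interval held 1.

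**Figure D3:**
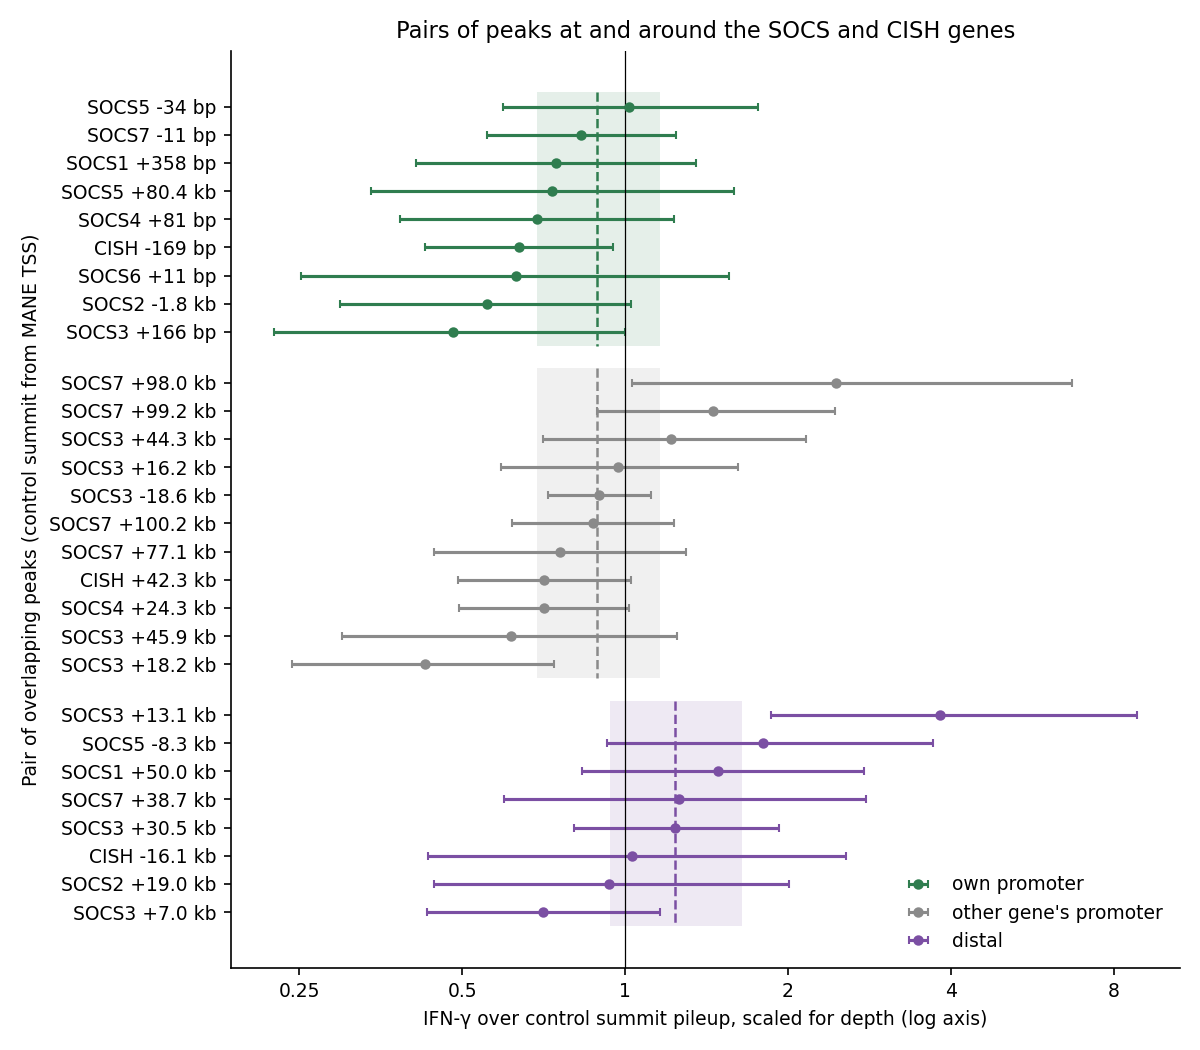
Ratio of the IFN-γ to the control summit pileup, scaled for depth (log axis), with exact 95% intervals, for the 28 pairs of overlapping peaks at and around the 8 genes, named by gene and by the distance of the control summit from its MANE TSS. Dashed lines and bands give the median and quartiles of all promoter pairs (green and grey) or all distal pairs (purple); most intervals include 1, and the pair 13.1 kb downstream of *SOCS3* lies furthest to the right.

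*SOCS3*, on chr17 from 78356778 to 78360077 on the minus strand, had 13 peaks in each library, of which 10 control and 9 IFN-γ peaks were shared. As many peaks were found at only 2.11% and 2.08% of protein-coding genes. The strongest by far was at the promoter of *PGS1*, a gene of cardiolipin synthesis 18.6 kb upstream. It was enriched 70.9-fold from 151 fragments in the control list, rank 86, and 66.3-fold from 197 fragments in the IFN-γ list, rank 126, with summits 0 bp and 17 bp from a *PGS1* TSS. Its ratio was 0.896 (0.721 to 1.12), close to that of the usual promoter.

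Of the others, 1 weak IFN-γ peak of 13 fragments lay 24.3 kb upstream within *PGS1*, on 2 octamers, and the rest lay at the gene or downstream, most of them in and around the non-coding gene ENSG00000267737. The peak 30.5 kb downstream of the *SOCS3* TSS was enriched 14.8-fold from 35 control fragments and 21.7-fold from 63 IFN-γ fragments, ranks 4306 and 2977. It was the strongest IFN-γ peak of the locus outside *PGS1*, and its ratio of 1.24 (0.805 to 1.93) was that of the median distal pair. Both summits fell on the octamer between the 2 AP-1 matches shown above, at 1 bp and 3 bp from its centre. The peak 16.2 kb downstream, at a promoter of ENSG00000267737, also lay on an octamer, 5 bp and 15 bp from its centre, and had 29 control and 41 IFN-γ fragments, a ratio of 0.971 (0.589 to 1.62).

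A neighbouring peak at that promoter, 18.2 kb downstream, had 37 fragments against 23 and a ratio of 0.427 (0.242 to 0.738), with its summits 285 bp apart. The peak at chr17:78352704-78353808, 6.95 kb downstream, was enriched 15.3-fold from 35 fragments in the control list. It was paired with an IFN-γ peak whose summit was 1258 bp away, so its ratio of 0.706 compares different places.

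The peaks on GGAA runs downstream of *SOCS3* were stronger in the IFN-γ library or listed only there. The peak 13.1 kb downstream, at chr17:78346780-78347082 in the control list and chr17:78346803-78347305 in the IFN-γ list, had 9 control fragments (4.12 to 17.1) and 50 IFN-γ fragments (37.1 to 65.9). The fold enrichment was 3.74 and 13.3, and the scaled ratio 3.82 (1.86 to 8.83), beside 1.24 for the median distal pair. The interval lies above 1.24, but this ratio is the highest of the 28 pairs, and the interval makes no allowance for that. Over the whole lists, runs of at least 4 GGAA units lay at 6.94% of control and 10.8% of IFN-γ summits. The peak 9.35 kb downstream, at chr17:78350445-78350872, had 36 fragments and a fold enrichment of 12.9, rank 8109, in the IFN-γ list and no counterpart in the control list. It covered the run of 5 units shown above and an AP-1 match 52 bp from its summit. With 1 library per condition, an effect of IFN-γ and any other difference between the libraries cannot be told apart.

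**Figure D4:**
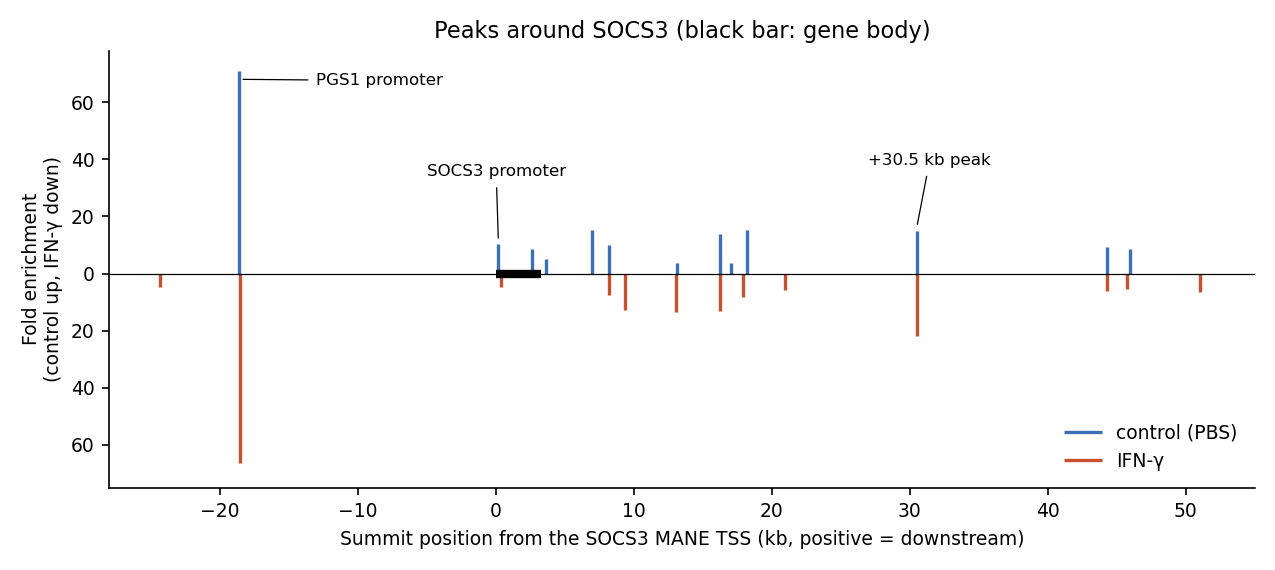
Fold enrichment of the 13 control peaks (upwards) and the 13 IFN-γ peaks (downwards) around *SOCS3* against the distance of each summit from its MANE TSS in kb, with the gene body as a black bar. The *PGS1* promoter peak, 18.6 kb upstream, has a fold enrichment of 70.9 and 66.3, and no other peak of either library exceeds 21.7.

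The loci of *SOCS7*, *CISH* and *SOCS4* were dominated by the promoters of neighbours as well. *SOCS7* had 9 peaks in each library, and 8.32% and 9.61% of protein-coding genes had as many. The strongest lay 100.2 kb downstream of its TSS, at promoters of *ARHGAP23*, which encodes a GTPase activating protein, and ENSG00000276170. This peak had 63 control and 80 IFN-γ fragments, ranks 1208 and 2350, with a ratio of 0.872 (0.619 to 1.23). Next to it, 99.2 kb downstream, a peak had 25 control and 53 IFN-γ fragments, a ratio of 1.46 (0.889 to 2.45). The peak after that, 98.0 kb downstream, had 7 control and 25 IFN-γ fragments, a ratio of 2.45 (1.03 to 6.72), or 1.55 by fold enrichments. Within *SOCS7* itself, 1 peak in intron 7 lay on a run of 13 GGAA units. It had 12 control and 22 IFN-γ fragments, a ratio of 1.26 (0.597 to 2.79).

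At *CISH* the strongest peak was 42.3 kb downstream, at promoters of *HEMK1*, a methyltransferase gene, and *C3orf18*. It had 61 control and 63 IFN-γ fragments, ranks 1408 and 4309, with a ratio of 0.709 (0.491 to 1.03). At *SOCS4* it was the *MAPK1IP1L* promoter 24.3 kb downstream, with 63 and 65 fragments, ranks 1396 and 3223, and the same ratio of 0.709 (0.493 to 1.02). Both outranked the promoter peaks of *CISH* and *SOCS4* in each library.

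*SOCS1*, *SOCS2* and *SOCS6* each had 2 control and 4 IFN-γ peaks. The peak 50.03 kb downstream of *SOCS1* had 18 control and 39 IFN-γ fragments, ratio 1.49 (0.831 to 2.76), and in the IFN-γ list it was stronger than the *SOCS1* promoter, with a fold enrichment of 11.2. *SOCS2* had IFN-γ peaks without a counterpart on both GGAA runs shown above, 24.6 kb upstream with 24 fragments and a fold enrichment of 8.99, and 41.7 kb downstream with 19 fragments and 7.58. The first of these was slightly higher in fold enrichment than the *SOCS2* promoter peak of the same library. The peaks of *SOCS6* outside its promoter, 1 in the control and 2 in the IFN-γ library, had 7 to 9 fragments and no counterpart.

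The FLI1 octamer, CAGGAAGT or CCGGAAGT on either strand, was found within 100 bp of 4 of 39 control summits, or 10.3%, and 5 of 46 IFN-γ summits, or 10.9%, beside 12.8% and 13.5% of all summits, so that it was about as frequent here as elsewhere in the lists. In windows placed at a distance of 1 kb on either side of these summits it was found in 0 of 78 and 0 of 92, which allows a share of up to 3.85% and 3.26%. Only the *SOCS7* promoter carried CCGGAAGT, and the other summits with an octamer, at *SOCS3*, *SOCS6* and *CISH*, carried CAGGAAGT outside their promoters. The core GGAA alone lay within 100 bp of 36 control and 45 IFN-γ summits, but also in 67 of the 78 and 71 of the 92 windows beside them.

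Runs of at least 4 GGAA units lay within 100 bp of 1 control summit, in *SOCS7*, beside 6.94% of all control summits. In the IFN-γ library they lay at 5 summits, beside 10.8% of all. Of these 5 peaks, 3, at *SOCS2* and *SOCS3*, had no control counterpart, too few to set beside the 61% of all IFN-γ peaks that had one. Over the whole lists such runs lay at 2139 control and 4288 IFN-γ summits, so more of them in the IFN-γ list is not particular to these genes. AP-1 matches were found at 7 control and 7 IFN-γ summits, beside 17.7% and 22.1% of all summits, and the interferon regulatory core GAAANNGAA at 3 and 5, beside 8.42% and 13.4%. A GGAA run can itself hold part of GAAANNGAA, as at *SOCS7* intron 7 and the *SOCS3* peak 13.1 kb downstream.

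GAS matches lay within 100 bp of 6 of 39 control summits, or 15.4%, beside 5.33% over the whole list, and of 8 of 46 IFN-γ summits, or 17.4%, beside 6.38%. In the windows 1 kb away they were found in 7 of 78 and 5 of 92, or 8.97% and 5.43%. Among the promoter summits of the 8 genes, 2 of 10 in the control and 2 of 12 in the IFN-γ library had a match. Most of the summits with a match thus lay outside these promoters. Of the 18 distinct GAS matches at these summits and TSSs, 15 contain the ETS core GGAA on one of the strands, so the motifs overlap in letters and a match cannot be assigned to one kind of factor. The difference from the lists was not tested, and peaks of 1 locus are not independent.

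Within 500 bp of the MANE TSS a GAS match was present in *SOCS2*, *SOCS3* and *CISH*, 3 of the 8 genes, beside 20.1% of 19061 genes. *CISH* had 4, centred 108, 125, 226 and 237 bp upstream, and 0.0420% of genes had as many. The summits of the *CISH* promoter peak fell between the 2 pairs, the control summit 44 bp from the nearest match and the IFN-γ summit 9 bp from it. All 4 contain the core GGAA. *SOCS3* had 3 matches, 345 bp and 60 bp upstream and 473 bp downstream of the TSS, and 0.362% of genes had as many. The control summit lay 226 bp from the match nearest to the TSS, and the IFN-γ summit lay 70 bp from the one downstream. *SOCS2* had 1 match, 151 bp downstream, and its control summit, 1.8 kb upstream near the start of *SOCS2-AS1*, lay 25 bp and 36 bp from the 2 matches of the pair shown above. No GAS match was found in this window at *SOCS1*, *SOCS4*, *SOCS5*, *SOCS6* and *SOCS7*, which says only that these letters are absent there.

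**Figure D5:**
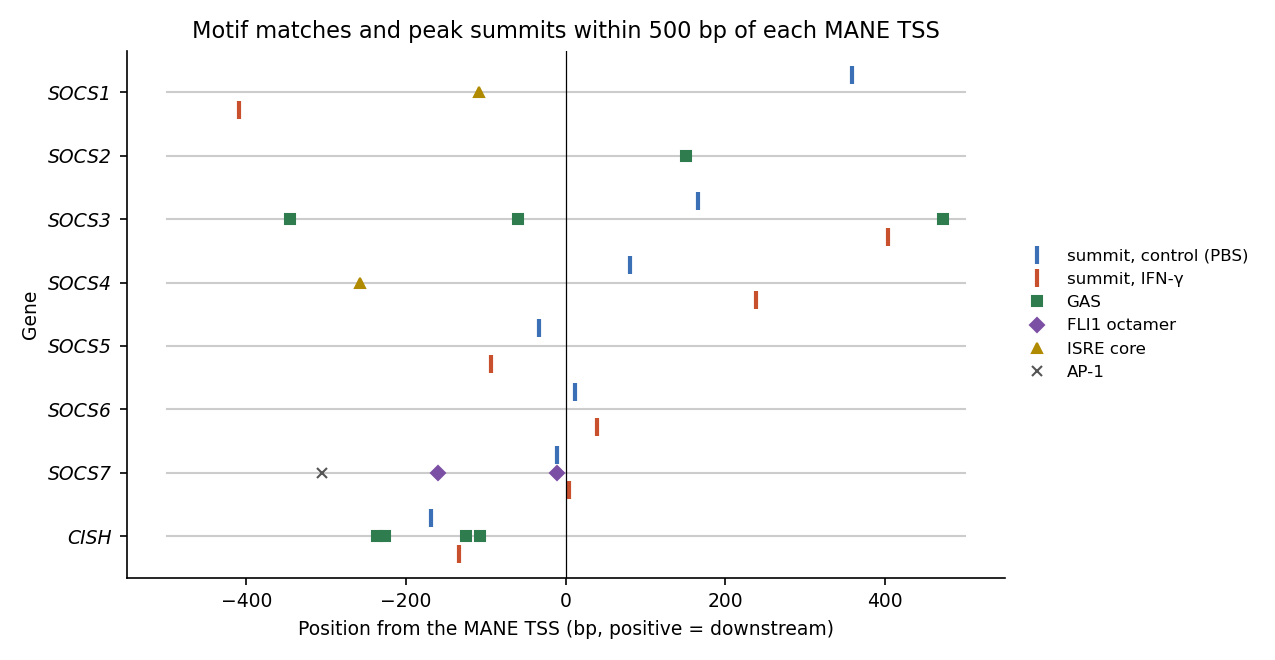
Positions of motif matches (symbols) and of promoter peak summits (bars above the line for the control and below it for the IFN-γ library) within 500 bp of the MANE TSS of each gene, in bp. The 4 GAS matches of *CISH* lie on both sides of its summits, and an octamer of *SOCS7* lies at its control summit; the summits of *SOCS2* lie outside the window.

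Other genes of the pathway were described in the same way. The partners with which the SOCS box builds its ubiquitin ligase, elongins, cullins and RING proteins, had a promoter peak in 6 of 6 genes in both libraries, beside the 56% of all protein-coding genes. The highest was *CUL2* in the control library, in the top 5.28%, and *RNF7*, the RING subunit paired with cullin 5, in the IFN-γ library, in the top 4.32%. Of their 6 pairs, 1 was lower by over 1.5 times and 0 were higher, beside 22.2% and 10.6% of all promoter pairs, with a median ratio of 0.738 beside 0.886. Other brakes on JAK-STAT signalling, phosphatases, PIAS proteins and adaptors, had a promoter peak in 10 of 12 genes in the control library and 9 of 12 in the IFN-γ library, beside 61.9% and 59.7% of all genes. *PIAS3*, an inhibitor of STAT3, had none in either, *PTPRC*, the gene of the leukocyte phosphatase CD45, had none in the control library, and *PIAS2* and *USP18* had none in the IFN-γ library. The highest were the SH2 phosphatase genes *PTPN11* in the control library, in the top 1.95%, and *PTPN6* in the IFN-γ library, in the top 2.04%. None of the 8 pairs of these brakes was past 1.5 times, and their median ratio was 0.884.

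The IFN-γ receptor, JAK and STAT genes, on which the SOCS proteins act or which act on the SOCS genes, had a promoter peak in 12 of 13 genes in each library, beside the same 61.9% and 59.7%, all but *STAT4* in the control library and all but *STAT5A* in the IFN-γ library. Of the 11 pairs, 3 were lower by over 1.5 times and 1 was higher, near the 22.2% and 10.6% of all promoter pairs, with a median ratio of 0.727.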

How the data were processed

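According to their methods, the authors used Cutadapt 1.18 for trimming, Bowtie2 2.3.4.1 for alignment to GRCh38, Picard against duplicates and MACS2 2.1.2 for peaks, at a stated p-value cutoff of 0.01; whether inputs entered the calling is not given in the sources used here. The deposited lists, 1 per library, give per peak the fold enrichment (a ratio), −log10 p and −log10 q, and a display score, which was not used. From these, the whole-number pileup and background of each summit were solved (largest relative error 6.21e-06). The lowest backgrounds, 1.06 and 1.54 fragments, gave the relative depth, since the lists hold no read totals. Median pileups were 16 and 22 fragments, and the lowest −log10 q values in the control and IFN-γ lists were 1.30 and 1.32. Both lists thus end at nearly the same q-value, and whether a cutoff on q was applied besides the stated one on p is not given.

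The genes and lists were chosen with earlier results of these data known. All promoter peaks were described, with the 3 strongest other peaks of each gene and any found in 1 library only and above the upper quartile by fold enrichment; the pathway genes named were the strongest of each list and those without a peak, and some items the rule selects are not reported here. Other peaks were chosen after their values were seen. Peaks were shared if they overlapped by at least 1 bp. Motif matches on either strand were counted in the 100 bp around summits and the 500 bp around MANE TSSs. RefSeq promoter entries of 5 of the 8 genes, 6 in all, equalled the genome used. Intervals are exact at 95% and cover counting error only. With 1 library per condition there was no test. Pileup recovery, overlaps and the octamer and repeat searches were tested on simulated data. The software was samtools 1.23.1 and Python 3.11.15 with pysam 0.24.0, pandas 2.3.3, numpy 2.4.6, matplotlib 3.10.9 and scipy 1.17.1.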

Additional observations from a re-analysis of the deposited data

How the results depend on the processing

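The number of genes with a promoter peak stayed at 8 in both libraries with q-values under 0.01, with narrower promoters, with the MANE TSS alone and with the summit required in the promoter. At q-values under 1e-05 it was 8 and 7, *SOCS6* being lost from the IFN-γ library. With peaks within 10 kb of the gene only, the control count became 20 and the IFN-γ count 21, and with peaks nearest to a TSS of the gene both became 12; both rules leave out peaks by construction. With summits within 100 bp the shared shares became 51.3% and 43.5%. With CCGGAAGT alone, summits with the octamer became 1 in each library. Control summits with a GGAA run became 2 with runs of at least 3 units, and 2 when the whole peak was searched. Scaling by the median pileup ratio, by fold enrichment or less background gave the 8 promoters a median ratio of 0.654, 0.688 and 0.633, beside 0.875, 0.853 and 0.855 over all promoter pairs. The ratio of fold enrichments moved 1 of 28 pairs out of its interval, that 44.3 kb downstream of *SOCS3*, from 1.22 to 0.634. By fold enrichments 4 of the 28 pairs crossed 1, and less background 2 did, none of them past 1.5 times before. Of the 4 promoters lower by over 1.5 times, 1 remained so by fold enrichments, of 3 in all, and 4 less background, of 5 in all. The cause was not tested. Depth limits single peaks, such as the *SOCS6* promoter, where the pileups were 12 and 11. No paired analysis was possible because there was 1 library of each condition.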
